A study of Mus musculus with 6 samples.

Results

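The 10 genes described here, of 42256 in the count table, encode core parts of the TGF-β system and were measured in PDGFRa+ cells sorted from mouse heart scar. They are the 3 ligand genes Tgfb1, Tgfb2 and Tgfb3, the 3 receptor genes Tgfbr1, Tgfbr2 and Tgfbr3, and the 4 latent TGF-β binding protein genes Ltbp1, Ltbp2, Ltbp3 and Ltbp4. They were chosen by name for their role. All 10 were found in the table, and all 10 were among the 15840 genes with enough counts to be tested.

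The 4 Htr2b_cKO libraries came from Htr2bfl/flPostnMCM/+ mice, which have loxP sites on both Htr2b alleles and a tamoxifen-activated Cre inserted at 1 Postn allele. The 2 control libraries came from Htr2bfl/fl mice, which have the same loxP sites and no Cre. Both groups were on a mixed 129S2/C57Bl6 background and ate tamoxifen chow, starting 1 week ahead of the injury, and scars were taken on day 7 after it. The comparison addresses how deleting the serotonin receptor gene Htr2b in Postn-expressing cells, the activated fibroblasts of a scar, changes their transcripts. Only cells that switch on Postn can delete the gene, and since no control carried Cre, loss of Htr2b cannot be told apart from effects of the Cre or its insertion at Postn.

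TGF-β is secreted as a latent complex, in which the growth factor stays bound to its own propeptide and is tethered to the extracellular matrix by a latent TGF-β binding protein. Integrins and proteases release it, and the free ligand then joins the type II receptor to the type I receptor, which phosphorylates SMAD proteins. In the injured heart this pathway is known for turning fibroblasts into matrix-producing myofibroblasts.

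Library totals were 28533427 to 37392496 estimated counts, and each member had at least 1002 counts in every library. Pdgfra, the gene of the sorting marker, had 1003, 802, 668 and 1126 CPM (counts scaled to library size, here by TMM) in the Htr2b_cKO libraries, against 732 and 1237 CPM in the control libraries. Htr2b had 0, 3, 29 and 4 estimated counts in the Htr2b_cKO libraries, against 13 and 7 in the control libraries. The third Htr2b_cKO library was thus above both controls in the gene its label says is deleted, and it is called below the library labelled Htr2b_cKO 3. Counts over a whole gene do not show whether an exon was removed. Postn had 1350.0, 1526, 2312 and 982 CPM in the Htr2b_cKO libraries, against 2309 and 1586 CPM in the control libraries. Htr2b_cKO 4 was the only male, with 0.267 CPM of Xist where each other library had 385 CPM or more. Macrophage markers were present in every library, at a summed level of 759.5, 2018, 3946 and 316 CPM over 8 genes in Htr2b_cKO libraries and 2345 and 718 CPM in control libraries. The 7 endothelial markers summed to 45.6 to 90.7 CPM in Htr2b_cKO libraries, against 246 and 48.1 CPM in control libraries. None of the markers in these 2 lists was at 0 in any library.

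None of the 10 genes passed the test for a difference between genotypes. Of all genes tested, 3 were called at an adjusted p under 0.05 (edgeR's quasi-likelihood test with Benjamini-Hochberg adjustment), a share of 0.0189%. Of the 10, 1 gene, the type I receptor gene Tgfbr1, was higher in Htr2b_cKO libraries at an unadjusted p under 0.05, as 6.6% of all genes tested were, and 0 were lower at that p, as 2.99% of all genes were. Tgfbr1 was also the only one whose 4 Htr2b_cKO libraries all lay above both control libraries, a pattern that 10.6% of all genes showed. None of the 10 lay wholly below the controls, as 8.98% of all genes did. The median log2 fold change of the 10 (Htr2b_cKO minus control) was 0.06, with 6 positive and 4 negative, and that of all genes tested was -0.00. With 4 against 2 libraries there are 15 ways to divide them, so an exact permutation test of 1 gene cannot give a p below 0.0667, and none was used.

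**Figure D1:**
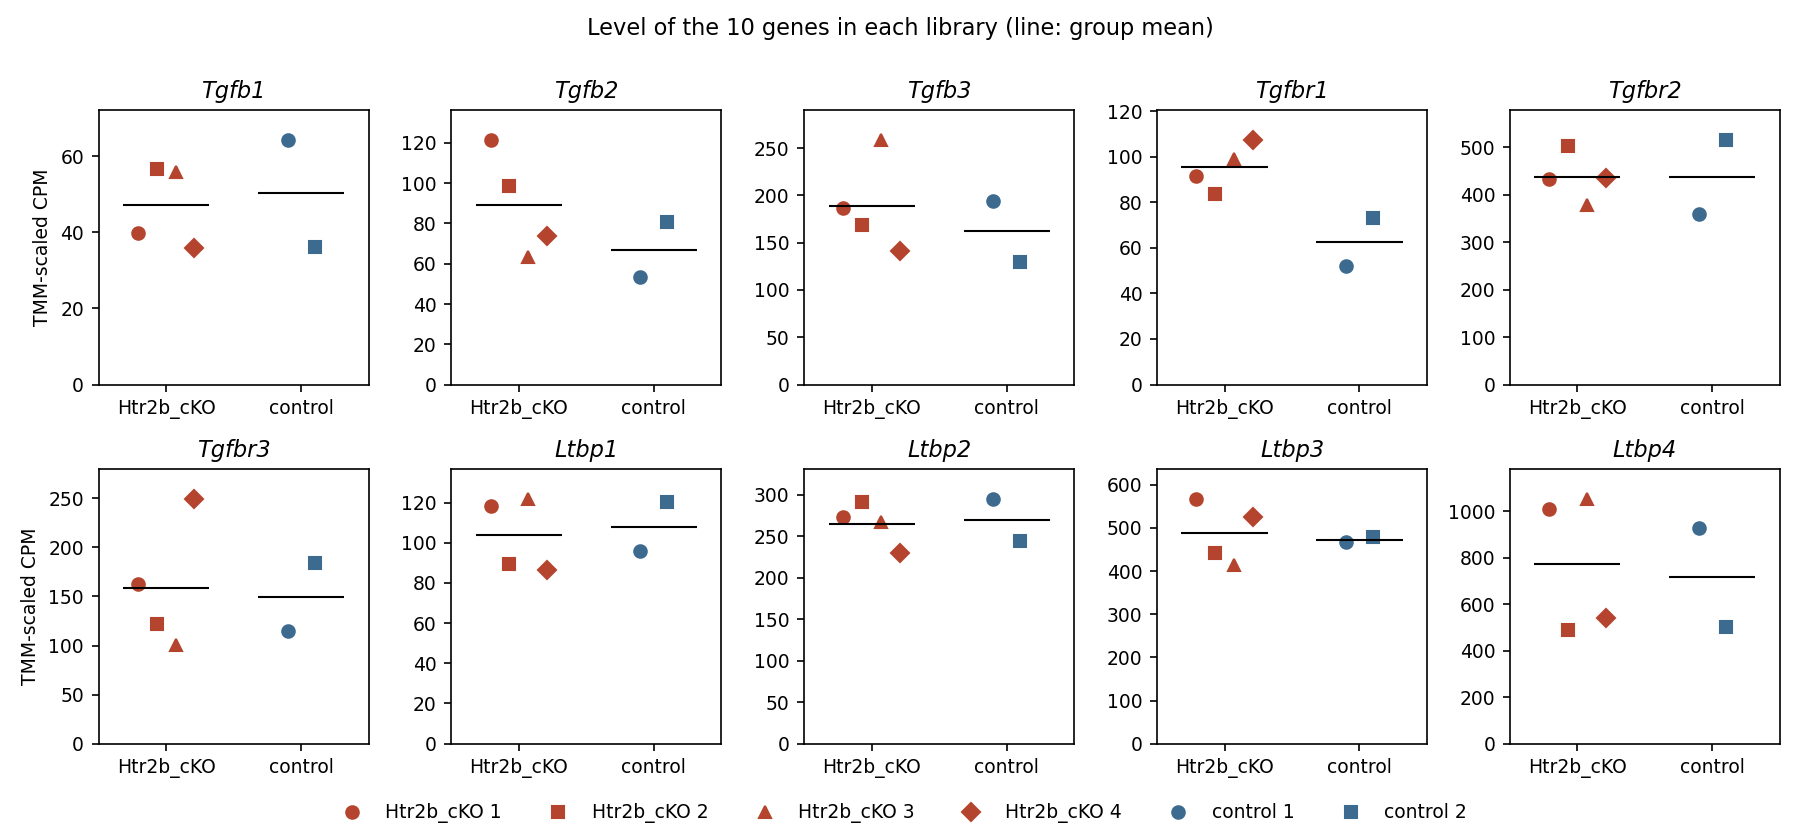
Level of the 10 genes in each library, in TMM-scaled CPM on an axis from 0. Each point is 1 library, Htr2b_cKO left and control right, and each line is a group mean; in Tgfbr1 the Htr2b_cKO libraries lie at 83.8 to 107 CPM and the controls at 52.2 and 73.3 CPM, and in the other 9 genes the groups overlap.

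Among the ligands, Tgfb3 transcripts were the most abundant in every library when levels were set per length. Levels of different genes are given in TPM, a count scaled by gene length and library, from the summed length of each gene's annotated exons. Tgfb3 had 139 to 244 TPM in Htr2b_cKO libraries, against 179 and 124 TPM in control libraries. It made up 68.7% ± 6.17 of the 3 ligands' summed TPM in Htr2b_cKO libraries (SD, n = 4) and 68.4% ± 5.52 in control libraries (SD, n = 2). The share of Tgfb2 was 19.7% ± 5.97 in Htr2b_cKO and 17.5% ± 8.36 in control libraries, and that of Tgfb1 was 11.7% ± 2.07 in Htr2b_cKO and 14.1% ± 2.84 in control libraries. Transcript length bears on the share of Tgfb1, whose annotated exons add up to 5042 bases while its longest coding transcript has 2175. With the longest coding transcript as the length, Tgfb1 reached 22.9% of the ligands in Htr2b_cKO and 27.0% in control libraries, and Tgfb3 was at 58.3% in Htr2b_cKO and 56.6% in control libraries. Tgfb3 was still the largest of the 3 shares.

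Tgfb3 (ENSMUSG00000021253, chromosome 12 from 86056745 to 86079041 in mm10) had 187, 168, 259 and 141 CPM in the Htr2b_cKO libraries, against 194 and 129.9 CPM in the control libraries. The library labelled Htr2b_cKO 3 was the highest and control 2 the lowest, and the groups overlapped. In the edgeR test the fold change was 0.22 on the log2 scale (SE 0.26, 95% interval -0.38 to 0.82, adjusted p = 0.822). It was 0.37 after a correction for GC content and length, 0.54 without control 1 and -0.03 without control 2. The genes with profiles closest to Tgfb3 over the 6 libraries were Aif1l, Zfp329 and Vstm4. Their root mean square differences from it in centred log2 CPM were 0.0570, 0.0714 and 0.0809, against a median of 0.437 over 15839 genes.

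Tgfb2 (ENSMUSG00000039239, chromosome 1 from 186622792 to 186705989) had 122, 98.4, 63.5 and 73.9 CPM in the Htr2b_cKO libraries, against 53.3 and 80.7 CPM in the control libraries. Its highest values were in Htr2b_cKO 1 and 2, while the other two Htr2b_cKO libraries lay between the controls. The log2 fold change of 0.42 (SE 0.29, 95% interval -0.26 to 1.09, edgeR adjusted p = 0.68) was the largest among the ligands and did not pass. It was 0.14 without control 1 and 0.75 without control 2. When both the library labelled Htr2b_cKO 3 and the male Htr2b_cKO 4 were left out, it was 0.72 with an unadjusted p of 0.0181 in the same edgeR test (adjusted p = 0.45, in a range of 0.425 to 0.999 over the alternatives).

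Tgfb1 (ENSMUSG00000002603, chromosome 7 from 25687002 to 25705077) had 39.8, 56.6, 55.9 and 36.0 CPM in the Htr2b_cKO libraries, against 64.4 and 36.2 CPM in the control libraries. Its log2 fold change of -0.10 (SE 0.28, 95% interval -0.74 to 0.54, edgeR adjusted p = 0.934) did not pass. Leaving out 1 control turned its sign or enlarged it, to 0.38 without control 1 and -0.44 without control 2. The 3 libraries with the most Tgfb1, control 1, Htr2b_cKO 2 and the library labelled Htr2b_cKO 3, were also the 3 with the highest summed macrophage markers. Their macrophage sums were 2018 and 3946 CPM in the pair of Htr2b_cKO libraries and 2345 CPM in control 1, while the remaining libraries had 316 to 759.5 CPM. The 5 platelet and megakaryocyte markers had the same 3 libraries highest, with sums of 66.5 and 83.4 CPM in that pair and 85.0 CPM in control 1. The remaining libraries had 18.5 to 35.3 CPM of these. Pf4 made up 54.5, 68.2 and 62.1 CPM of the 3 sums, while Itga2b was highest in the 2 controls, at 13.8 and 12.4 CPM. In bulk RNA, fewer cells of a type and less RNA per cell cannot be told apart. Control 1, the library with the most Tgfb1, also had the highest endothelial marker sum, at 246 CPM. The part of macrophage, platelet or endothelial RNA in the level of Tgfb1 was not tested. With the macrophage score as a covariate the log2 fold change of Tgfb1 was -0.07, and with the endothelial score it was 0.20. Tgfb1 varied 1.79-fold from the lowest to the highest library, and the 8 macrophage markers varied 4.19-fold (Ptprc) to 15.4-fold (Lyz2).

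**Figure D2:**
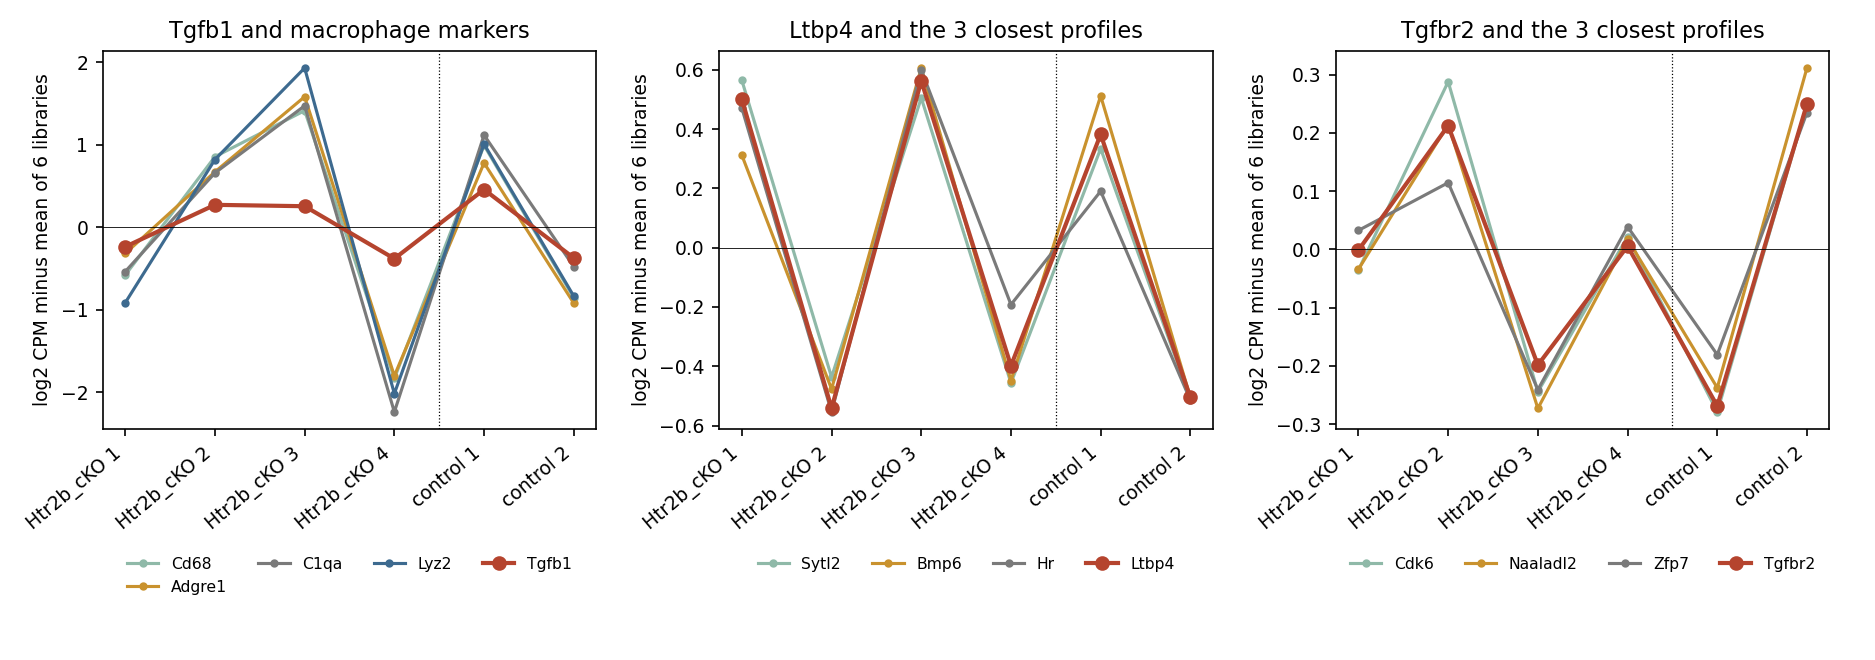
Log2 CPM of single genes minus the gene's mean over the 6 libraries, with Htr2b_cKO libraries left and control libraries right of the dotted line; lines only join the points of a gene, since libraries have no order. Tgfb1 is drawn with 4 macrophage markers and varies over a smaller range. The same 3 libraries are highest in Tgfb1 and in each marker, but Tgfb1 peaks in control 1 and the markers in the library labelled Htr2b_cKO 3. Ltbp4 and Tgfbr2 are drawn with the 3 genes whose profiles lay closest to theirs.

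Of the receptors, Tgfbr2 had the highest level per summed exon length in all 6 libraries and Tgfbr1 the lowest. In the library labelled Htr2b_cKO 3, Tgfbr1 and Tgfbr3 were nearly level at 48.4 and 48.7 TPM, and their order there depends on the length used. Tgfbr2 encodes the type II receptor, which binds the ligand, and Tgfbr1 encodes the type I receptor, the kinase that passes the signal on. Tgfbr3 encodes betaglycan, a co-receptor that presents ligand and is known for its role in the binding of TGF-β from Tgfb2. Tgfbr1 took 15.2%, 13.8%, 19.8% and 15.3% of the summed TPM of the 3 receptors in Htr2b_cKO libraries, against 11.5% and 11.0% in control libraries. The groups did not overlap in this share, which averaged 16.0% ± 2.60 in Htr2b_cKO and 11.2% ± 0.397 in control libraries (SD, n = 4 and 2). Tgfbr2 took 58.4% ± 6.96 in Htr2b_cKO and 62.4% ± 1.28 in control libraries, and Tgfbr3 took 25.6% ± 7.31 in Htr2b_cKO and 26.3% ± 1.67 in control libraries, with overlapping groups for both. Per length there were 0.264, 0.209, 0.328 and 0.309 Tgfbr1 transcripts for each Tgfbr2 transcript in Htr2b_cKO libraries, against 0.182 and 0.178 in control libraries. After the correction for GC content and length described next, an alternative added after seeing the data, the groups overlapped in both. The corrected Tgfbr1 share was 14.7%, 13.0%, 18.3% and 14.5% in Htr2b_cKO libraries, against 13.6% and 11.6% in control libraries, and the corrected ratio was 0.255, 0.194, 0.297 and 0.294 in Htr2b_cKO libraries, against 0.221 and 0.191 in control libraries. Control 1 thus lay above Htr2b_cKO 2 in each. No test was run on these shares or ratios.

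**Figure D3:**
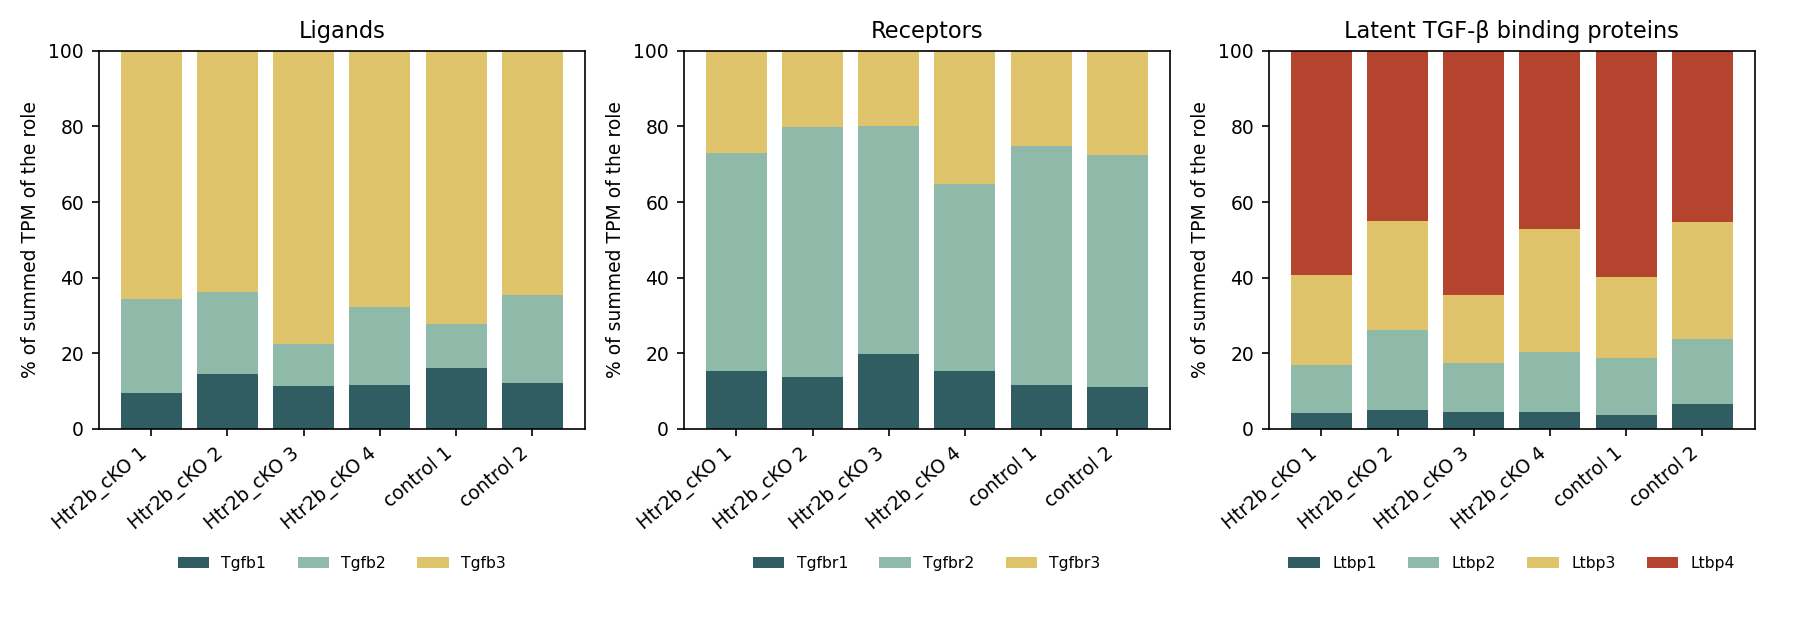
Each gene's percent of the summed TPM of its role in each library, Htr2b_cKO libraries left and control libraries right, for the ligands, the receptors and the latent TGF-β binding proteins. With the summed exon lengths used for TPM, Tgfb3, Tgfbr2 and Ltbp4 are the largest share of their role in all 6 libraries. The Tgfbr1 share, drawn without a correction for GC content, is 13.8% to 19.8% in Htr2b_cKO and 11.0% to 11.5% in control libraries.

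Tgfbr1 (ENSMUSG00000007613, chromosome 4 from 47353222 to 47414931) had 91.4, 83.8, 99.1 and 107 CPM in the Htr2b_cKO libraries, against 52.2 and 73.3 CPM in the control libraries. All 4 Htr2b_cKO libraries were above both controls, with 10.5 CPM between the nearest pair, Htr2b_cKO 2 and control 2. The means were 95.5 ± 10.2 CPM in Htr2b_cKO and 62.8 ± 14.9 CPM in control libraries (SD, n = 4 and 2), a 1.52-fold difference. The log2 fold change was 0.61 (SE 0.18, 95% interval 0.20 to 1.01), with an unadjusted p of 0.00821 and an adjusted p of 0.393 in the edgeR test over all genes. The authors' own normalized signal gave the same arrangement, with 2823, 2794, 3016 and 3562 in Htr2b_cKO libraries and 1684 and 2419 in control libraries. Tgfbr1 was the only one of the 10 whose groups did not overlap in that signal. The signal is the same counts over a factor, and the share of all genes that separate in it is not given here.

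The size of the difference in Tgfbr1 depended on a correction for base composition and on control 1. Tgfbr1 has the most GC-poor transcript of the 10, at 41.0% GC, and it was the only member in the lowest of 5 equal bins of genes by GC content (30.8% to 44.0%). In that bin the median log2 fold change was 0.32 and 23.5% of genes were higher in Htr2b_cKO at an unadjusted p under 0.05, while in the bin with the highest GC content the median was -0.15 and the share 1.01%. After each library was corrected for GC content and length, Tgfbr1 had 84.5, 78.3, 93.9 and 98.3 CPM in Htr2b_cKO libraries, against 65.7 and 77.9 CPM in control libraries. The groups still did not overlap, but only 0.404 CPM lay between Htr2b_cKO 2 and control 2. The corrected log2 fold change was 0.31 (95% interval -0.01 to 0.62), with an edgeR adjusted p of 0.869 (unadjusted 0.0569), in a range of 0.146 to 0.999 over the alternatives. Without control 1, which had the lowest Tgfbr1 and the highest endothelial marker sum, it was 0.38 (edgeR adjusted p = 0.999, unadjusted 0.0934), and without control 2 it was 0.88. With the endothelial score as a covariate it was 0.49.

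The upstream of the 2 annotated starts of Tgfbr1 is shown with the start of its partner Tgfbr2, because the transcript of Tgfbr1 is GC-poor while that window is not. Both are RefSeq windows of GRCm38.p6, from 250 bases before to 50 bases after an annotated start, printed 5′ to 3′ on the gene's strand, with GC boxes (GGGCGG or CCGCCC) in capitals. The Tgfbr1 window is chr4:47352972-47353271 on the plus strand and the Tgfbr2 window is chr9:116175314-116175613 on the minus strand.
Tgfbr1: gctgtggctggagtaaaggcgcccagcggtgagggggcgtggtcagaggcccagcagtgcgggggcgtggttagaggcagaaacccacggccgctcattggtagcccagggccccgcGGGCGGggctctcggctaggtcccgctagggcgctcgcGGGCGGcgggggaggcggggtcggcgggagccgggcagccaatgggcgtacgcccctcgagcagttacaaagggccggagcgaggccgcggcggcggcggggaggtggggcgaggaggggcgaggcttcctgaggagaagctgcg
Tgfbr2: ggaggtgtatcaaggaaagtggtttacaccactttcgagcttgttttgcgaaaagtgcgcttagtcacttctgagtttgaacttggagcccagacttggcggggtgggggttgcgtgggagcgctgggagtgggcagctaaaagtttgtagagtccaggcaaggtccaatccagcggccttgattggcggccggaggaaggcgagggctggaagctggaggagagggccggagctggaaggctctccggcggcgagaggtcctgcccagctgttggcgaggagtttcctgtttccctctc
The upstream Tgfbr1 window is 74.7% GC and holds 2 GC boxes, and the Tgfbr2 window is 59% GC and holds 0. The window of the other Tgfbr1 start, chr4:47385966-47386265, is 52% GC and holds 0 GC boxes, and counts per gene cannot tell which start was used. The median over 32851 such windows is 52.7% GC, and 35.7% of them hold a GC box on either strand. Neither printed window holds a TATA box (TATAAA or TTTATA, in 13.6% of windows), and each holds 2 CCAAT boxes (CCAAT or ATTGG, in 37.4% of windows). Of the 10 genes, 8 had a window in the RefSeq table, and the letters alone say nothing of what binds there.

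Tgfbr2 (ENSMUSG00000032440, chromosome 9 from 116084293 to 116175360) had 434, 503, 378 and 436 CPM in the Htr2b_cKO libraries, against 360.2 and 516 CPM in the control libraries. The Htr2b_cKO libraries all lay between the 2 controls. The means were 438 ± 51.0 CPM in Htr2b_cKO and 438 ± 110.2 CPM in control libraries, and the log2 difference was -0.00 (SE 0.19, 95% interval -0.44 to 0.43, edgeR adjusted p = 0.999). It was -0.24 without control 1 and 0.29 without control 2. The genes whose profiles over the 6 libraries lay closest to Tgfbr2 were the cell-cycle kinase gene Cdk6, Naaladl2 and Zfp7. Their root mean square differences in centred log2 CPM were 0.0393, 0.0421 and 0.0607, against a median of 0.330 over 15839 genes.

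Tgfbr3 (ENSMUSG00000029287, chromosome 5 from 107106570 to 107289629) had 162, 122, 100.1 and 249.5 CPM in the Htr2b_cKO libraries, against 114 and 184 CPM in the control libraries. It was the most variable of the 10, with a 2.49-fold range and a coefficient of variation of 36.0% over the 6 libraries. The highest value was in the male Htr2b_cKO 4 and the lowest in the library labelled Htr2b_cKO 3, so that the Htr2b_cKO libraries spanned both controls. The estimate was a log2 fold change of 0.09 (SE 0.39, 95% interval -0.84 to 1.01, edgeR adjusted p = 0.963), and without Htr2b_cKO 4 it was -0.22.

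With the summed exon lengths used for TPM here, the latent TGF-β binding proteins were the most abundant of the roles. Ltbp4 was then the highest of all 10 genes in every library. Its lead over Ltbp3 depends on the length used. The exons of Ltbp3 add up to 9069 bases and its longest coding transcript has 5190, against 6463 and 5386 bases for Ltbp4. The 4 Ltbp genes summed to 717 ± 165 TPM in Htr2b_cKO and 651 ± 137 TPM in control libraries, the 3 receptors to 308 ± 47.5 TPM in Htr2b_cKO and 273 ± 81.0 TPM in control libraries, and the 3 ligands to 268 ± 46.7 TPM in Htr2b_cKO and 219.5 ± 38.8 TPM in control libraries (SD, n = 4 and 2). The groups overlapped in each sum. Ltbp1, Ltbp3 and Ltbp4, whose proteins bind the latent ligand complex, gave 2.27 ± 0.432 transcripts per ligand transcript in Htr2b_cKO and 2.48 ± 0.134 in control libraries, again with overlap. Over all 6 libraries the order of mean TPM was Ltbp4 (381), Tgfbr2 (175.5), Ltbp3 (175), Tgfb3 (174), Ltbp2 (107), Tgfbr3 (78.2), Tgfb2 (46.7), Tgfbr1 (42.6), Ltbp1 (32.3) and Tgfb1 (31.1). Ltbp4 above Tgfbr2, Tgfb3 above Ltbp2, and Tgfbr3 above Tgfb2 held in 6 of 6 libraries, and Ltbp2 above Tgfbr3 in 5 of 6. The order of the other neighbouring pairs held in 3 or 4 libraries. These orders are for summed exon lengths. The last place of Tgfb1 depends on that choice, since its exons add up to 5042 bases and its longest coding transcript has 2175. All 10 were well expressed, from the 73.5th to the 97.3rd percentile of tested genes by TPM.

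Ltbp4 (ENSMUSG00000040488, chromosome 7 from 27305136 to 27337692), which is also needed for elastic fibre assembly, had 1008, 489.7, 1053 and 541 CPM in the Htr2b_cKO libraries, against 929 and 502 CPM in the control libraries. The libraries fell at 2 levels that cut across genotype. Htr2b_cKO 1, the library labelled Htr2b_cKO 3 and control 1 were at 929 to 1053 CPM, and Htr2b_cKO 2, Htr2b_cKO 4 and control 2 were at 489.7 to 541 CPM. Its log2 fold change was 0.11 (SE 0.40, 95% interval -0.84 to 1.06, edgeR adjusted p = 0.952), with 0.62 without control 1 and -0.26 without control 2. The genes chosen for the profiles most like that of Ltbp4 were Sytl2, the growth factor gene Bmp6 and Hr, at root mean square differences of 0.0645, 0.101 and 0.117 log2 units against a median of 0.575 over all genes. Bmp6 had 51.8, 30.0, 63.5 and 30.6 CPM in Htr2b_cKO libraries, against 59.5 and 29.4 CPM in control libraries.

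Ltbp3 (ENSMUSG00000024940, chromosome 19 from 5740904 to 5758532), which aids secretion of the latent complex, had 568, 442, 414 and 526 CPM in the Htr2b_cKO libraries, against 466 and 479.5 CPM in the control libraries. Both controls lay within the range of the Htr2b_cKO libraries. Its 95% interval, -0.35 to 0.44 around a log2 fold change of 0.04 (SE 0.17, edgeR adjusted p = 0.957), was among the narrowest of the 10.

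Ltbp2 (ENSMUSG00000002020, chromosome 12 from 84783212 to 84876532), the family member that is not known to bind latent TGF-β, was the steadiest gene, with a coefficient of variation of 9.65%. It had 273, 291, 266.5 and 230.0 CPM in the Htr2b_cKO libraries, against 295 and 244 CPM in the control libraries. The log2 fold change was -0.02 (SE 0.16, 95% interval -0.38 to 0.33, edgeR adjusted p = 0.974), and the bounds of that interval are 1.26-fold higher and 1.30-fold lower in Htr2b_cKO. An antisense gene, D030025P21Rik, shares 764 exon bases with it and had 13 to 49 counts per library; the strand setting of the counting is not given in the sources used here.

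Ltbp1 (ENSMUSG00000001870, chromosome 17 from 75005568 to 75392512), which crosslinks the latent complex into the matrix, was the least abundant Ltbp gene per length, at 4.56% ± 0.315 of the 4 in Htr2b_cKO and 5.14% ± 2.00 in control libraries. It had 119, 89.6, 122 and 86.3 CPM in the Htr2b_cKO libraries, against 95.7 and 120.3 CPM in the control libraries. The values overlapped, with a log2 fold change of -0.05 (SE 0.19, 95% interval -0.48 to 0.38, edgeR adjusted p = 0.95). Annotated transcripts of Ltbp1 and Ltbp4 begin at more than 1 start, and counts per gene cannot tell long from short forms.

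**Figure D4:**
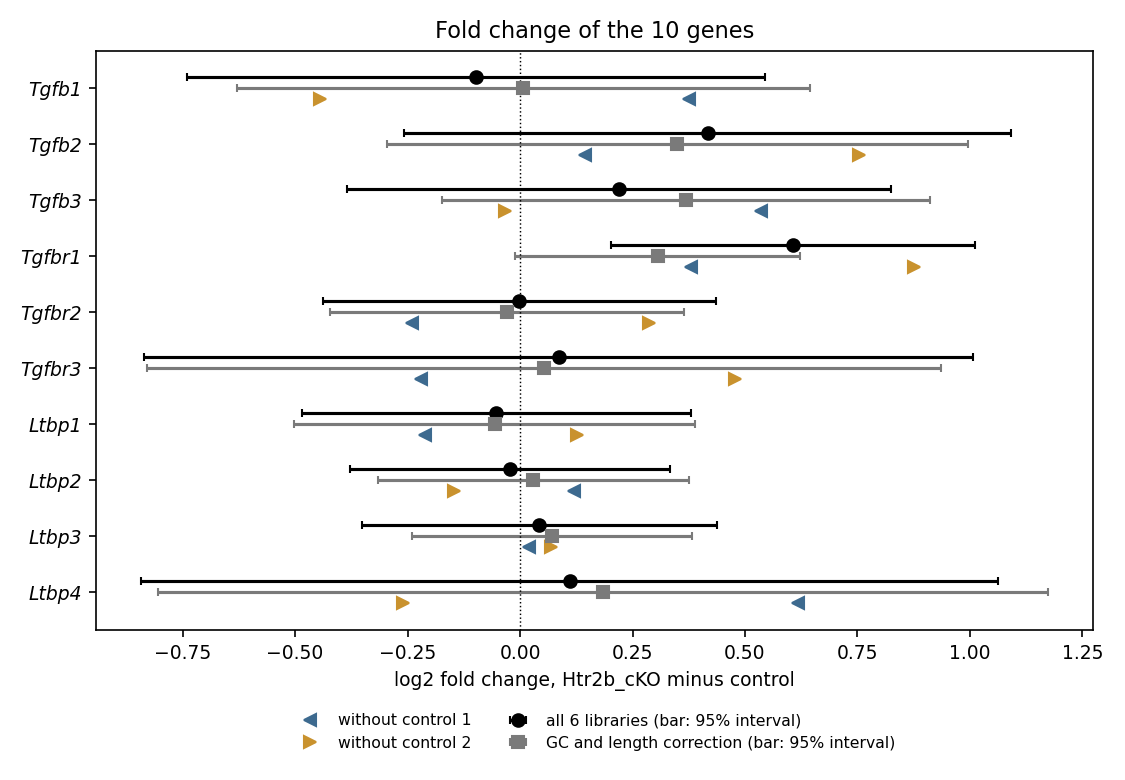
Log2 fold change, Htr2b_cKO minus control, of the 10 genes from all 6 libraries (black circle) and after the GC and length correction (grey square), each with its 95% interval, and without control 1 or control 2 (triangles). The uncorrected interval of Tgfbr1, 0.20 to 1.01, is the only one that leaves out 0, and the 2 triangles lie on opposite sides of 0 for Tgfb1, Tgfb3, Tgfbr2, Tgfbr3, Ltbp1, Ltbp2 and Ltbp4.

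Genes that release or anchor latent TGF-β were likewise not called. Of 18 listed, 17 were tested, 0 passed, 10 had a positive and 7 a negative log2 fold change, and the median was 0.11. At an unadjusted p under 0.05, 1 was higher and 1 was lower, where 6.6% of all genes tested were higher and 2.99% lower. That total of 2 was 4 when the library labelled Htr2b_cKO 3 was left out and 1 with the endothelial covariate. The share of all genes in those fits is not given here. The higher one was Itgb8, the integrin β subunit that with αv activates the latent complex. It had 33.2, 25.6, 20.98 and 39.5 CPM in Htr2b_cKO libraries, against 14.6 and 15.8 CPM in control libraries. Its Htr2b_cKO libraries all lay above both controls, as those of 10.6% of all genes did. Its log2 fold change was 0.97 (SE 0.26, unadjusted p = 0.00485, edgeR adjusted p = 0.356), and after the GC and length correction it was 0.55. The lower one was Mmp9, a gelatinase, with 20.1, 19.9, 30.9 and 24.7 CPM in Htr2b_cKO libraries, against 53.2 and 29.4 CPM in control libraries. Its log2 fold change of -0.79 (unadjusted p = 0.0171, edgeR adjusted p = 0.427) was -0.30 without control 1, whose value was the highest. Summed neutrophil markers were at 24.1 to 76.7 CPM in Htr2b_cKO libraries, against 97.8 CPM in control 1 and 33.8 CPM in control 2, and their part in the level of Mmp9 was not tested. Itgb1, the broadly shared β subunit, had 825 to 927 CPM in Htr2b_cKO libraries, against 688 and 784 CPM in control libraries (log2 fold change 0.24, edgeR adjusted p = 0.651, and 0.14 once corrected for GC content and length). The urokinase gene Plau had a log2 fold change of -0.27 (edgeR adjusted p = 0.631).

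The 12 extracellular modulators and accessory receptors had a median log2 fold change of -0.02, with 5 positive and 7 negative and 0 called. At an unadjusted p under 0.05, 0 were lower and 1 was higher, against 2.99% and 6.6% of all genes tested. That gene was Aspn, which encodes asporin, a small proteoglycan that binds TGF-β and limits its signalling. Aspn had 279, 347, 414 and 167 CPM in Htr2b_cKO libraries, against 156 and 92.1 CPM in control libraries, and the male Htr2b_cKO 4 was the nearest to the controls. The estimate was a log2 fold change of 1.28 (SE 0.40), not called by edgeR (adjusted p = 0.413), and DESeq2 and an edgeR fit with the macrophage score as a covariate called it, with adjusted p of 0.0158 and 0.0187 in a range of 0.0158 to 0.999 over the alternatives. The fold change of Aspn was 0.84 with GC content and length corrected for (edgeR adjusted p = 0.869), 1.71 without control 1 and 0.96 without control 2. Htra1, a secreted protease that can dampen TGF-β signalling, lay below both controls in every Htr2b_cKO library, as 8.98% of all genes did. It had 222 to 304 CPM in Htr2b_cKO and 328 and 338 CPM in control libraries (log2 fold change -0.32, edgeR adjusted p = 0.575, and -0.15 in the corrected counts). The co-receptor genes Nrp1 and Cd109 had log2 fold changes of 0.34 and 0.45 (edgeR adjusted p = 0.548 and 0.587). In the corrected counts that of Nrp1 was 0.0075 and that of Cd109 was 0.26.

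Of 16 intracellular signalling genes, 11 had a positive and 5 a negative log2 fold change, with a median of 0.15 and 0 called. At an unadjusted p under 0.05, 2 were higher, as 6.6% of all genes tested were. That count of 2 ran from 1 to 5 over the alternatives, with 5 without the library labelled Htr2b_cKO 3. For those fits no share of all genes is given here. The count was 1 with DESeq2, the GC and length correction, the authors' factors or the endothelial covariate. Leaving out Htr2b_cKO 1, 2 or 4 alone also gave 1. The smallest p was that of Skil, the SMAD corepressor gene, with 101, 107, 102 and 129 CPM in Htr2b_cKO libraries, against 50.8 and 64.1 CPM in control libraries. DESeq2 called Skil (adjusted p = 0.0035, in a range of 0.0035 to 0.999 over the alternatives) and edgeR did not (adjusted p = 0.304). Once GC content and length were corrected for, its log2 fold change of 0.93 was 0.57. Smurf2, a ubiquitin ligase that can target the receptor complex, had 81.7, 71.2, 66.7 and 72.9 CPM in Htr2b_cKO libraries, against 51.8 and 63.1 CPM in control libraries (log2 fold change 0.35, unadjusted p = 0.042, edgeR adjusted p = 0.51). With GC content and length corrected for, Smurf2 was at 0.26 with an unadjusted edgeR p of 0.0585. The kinase gene Map3k7 and its adaptor Tab2 had log2 fold changes of 0.29 and 0.24 (edgeR adjusted p = 0.585 and 0.643), which were 0.13 and 0.21 after that correction. The receptor-activated Smad2 and Smad3 and their partner Smad4, named here after their values were seen, had log2 fold changes of 0.04, -0.13 and -0.03.

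Of 15 target genes, 11 had a positive and 4 a negative log2 fold change, with a median of 0.26 and 0 called. At an unadjusted p under 0.05 there were 0 in either direction, where 6.6% of all genes tested were higher and 2.99% lower. That count was 0 to 3 over the alternatives, with 3 without the library labelled Htr2b_cKO 3 and 2 with the endothelial covariate. For those fits no share of all genes is given here. Postn, on this list, carries the Cre insertion in Htr2b_cKO mice. The matrix gene Tnc, encoding tenascin-C, had 1837, 1046, 344 and 761 CPM in Htr2b_cKO libraries, against 466 and 395 CPM in control libraries. The library labelled Htr2b_cKO 3 was below both controls, and edgeR gave a log2 fold change of 1.21 (SE 0.63, adjusted p = 0.606). Without that library it was 1.51, at an unadjusted edgeR p of 0.00713, and without Htr2b_cKO 1 it was 0.75. Comp, another matrix gene, had 27.4, 18.5, 50.7 and 16.9 CPM in Htr2b_cKO libraries, against 16.5 and 15.8 CPM in control libraries, so that Htr2b_cKO 4 was barely above control 1. Ldlrad4, which dampens SMAD activation, had a log2 fold change of 0.27 (edgeR adjusted p = 0.642), and 0.095 in the corrected counts. The myofibroblast actin gene Acta2 was at 217 to 296 CPM in Htr2b_cKO libraries, against 452 and 232 CPM in control libraries; its log2 fold change of -0.38 (edgeR adjusted p = 0.667) was 0.18 without control 1. The 6 mural cell markers summed to 68.7 to 95.9 CPM in Htr2b_cKO libraries, against 117 CPM in control 1 and 50.3 CPM in control 2, and their part in the level of Acta2 was not tested.

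**Figure D5:**
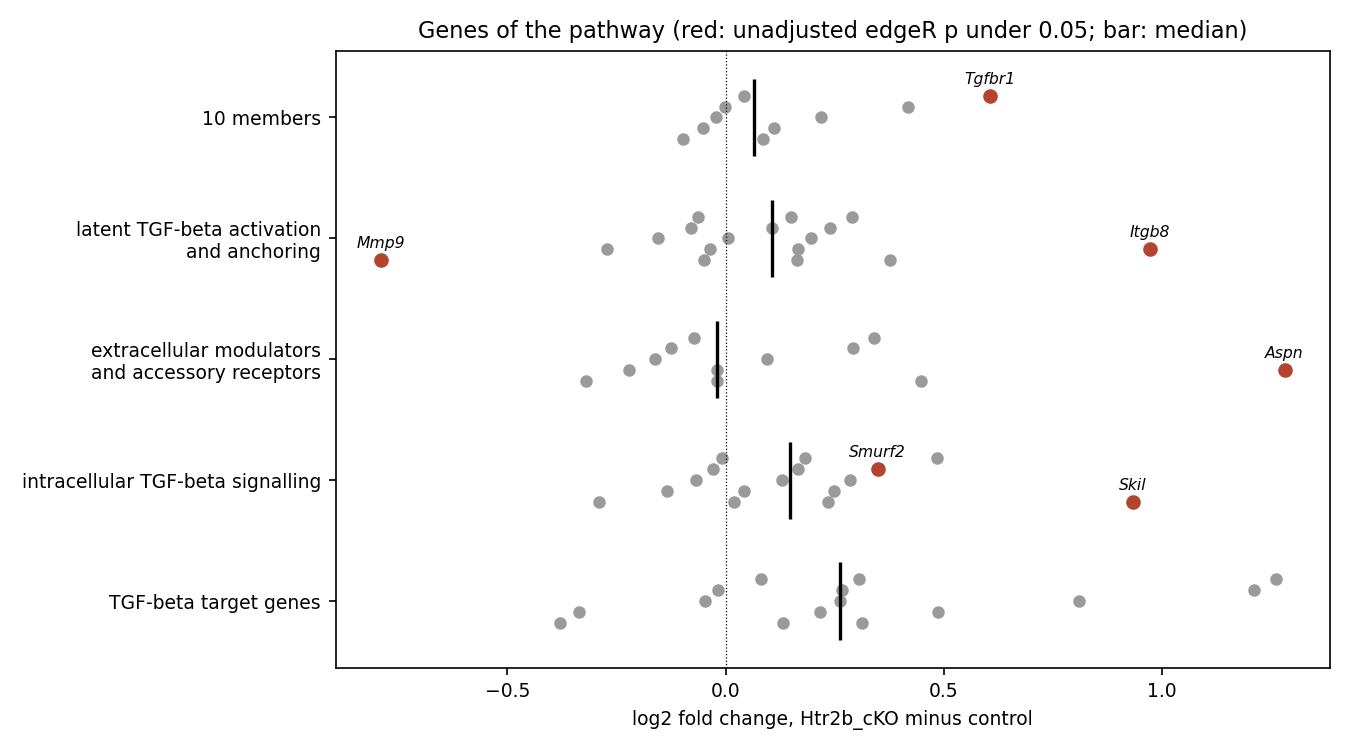
Log2 fold change, Htr2b_cKO minus control, of the 10 genes and of every tested gene in 4 lists of the same pathway; each point is a gene, bars are list medians, and red points have an unadjusted edgeR p under 0.05. The medians lie between -0.02 and 0.26, and 6 genes are red, of which Mmp9 is the only one left of 0.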

How the data were processed

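RNA of PDGFRa+ cells sorted from heart scar was sequenced as strand-specific libraries of total RNA (per the labels' protocols) in 4 Htr2b_cKO and 2 control libraries. The authors' main table gives unnormalized estimated counts, in whole numbers by Ensembl identifier, in columns that, per the file headers, carry the name ending of a transcript quantifier's gene-level output. A second deposited table holds a normalized signal, equal to the count over a factor specific to gene and library. DRAGEN, DESeq2 and mm10 are named per the submitters' processing notes, without versions. How counting treated strand is not given in the sources used.

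Counts were tested with edgeR 4.0.16 in R 4.3.3 (TMM, filterByExpr, robust quasi-likelihood F test, two-sided, genotype as the only term), fitted on the whole table, with Benjamini-Hochberg adjustment over the 15840 genes tested. DESeq2 1.42.0, limma 3.58.1 (voom), other scalings and covariates, corrections and left-out libraries were alternatives. The GC and length correction took per-library splines (4 degrees of freedom) fitted on genes with a mean CPM of at least 5. TPM used exon-union lengths of GENCODE's mm10 annotation. Each of the 15 library pairs differed more than sampling noise gives (chi-square over its degrees of freedom 50.4 to 206), so none was a copy. Counting error of a member was at most 3.16%. The series text speaks of animals, but no label numbers them, so p-values measure the spread between these libraries.

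The members and gene lists were chosen with earlier results of these data known. Named genes were all members, the 4 genes of smallest p in each pathway list (Postn and others outside it are named as such or as label checks), the 3 nearest profiles of the most abundant member of each role, and overlapping genes. Some genes that this rule took are not described.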

Additional observations from a re-analysis of the deposited data

How the results depend on the processing

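Over 18 alternatives 0 of the 10 members were called, and Tgfb2 and Tgfbr1 kept a positive sign in all 18. When libraries were left out, that sign was bound to hold for Tgfbr1, since every Htr2b_cKO library lay above both controls. Tgfbr1 ranged from 0.31 to 0.88 (log2) and had an unadjusted p under 0.05 in 15. It did not after the GC and length correction, without control 1, or without both the library labelled Htr2b_cKO 3 and control 1 (0.36). The last of these was added after seeing the data, and the cause was not tested.

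Genes called numbered 3, against 5 with no filter on low counts, 105 with DESeq2, 1 with limma voom, 10 with the macrophage covariate, 5 without both the library labelled Htr2b_cKO 3 and Htr2b_cKO 4, and 1 to 8 when single libraries were left out. Members at an unadjusted p under 0.05 numbered 1, against 0 after the GC and length correction, 2 without both the library labelled Htr2b_cKO 3 and Htr2b_cKO 4, 0 without both the library labelled Htr2b_cKO 3 and control 1, and 0 to 1 without single libraries. Members with groups that did not overlap numbered 1, against 2 and 4 with those pairs left out and 1 to 5 without single libraries. Fewer libraries make such separation easier by construction. For both counts the share of all genes under each alternative is not given, so the changes cannot be read as particular to the members. The members' median was 0.06, and 0.20 without both the library labelled Htr2b_cKO 3 and control 1.

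Small fold changes turned sign. Tgfbr2 was 0.0014 with no filter, 0.0075 with voom, 0.013 with the authors' factors, 0.0050 with the macrophage covariate and 0.097 without the library labelled Htr2b_cKO 3 and Htr2b_cKO 4. Tgfb1 was 0.0074 after the GC and length correction, 0.20 with the endothelial covariate and 0.28 without the library labelled Htr2b_cKO 3 and control 1. Ltbp2 was 0.030, 0.015, 0.072, 0.067 and 0.12 under the GC and length correction, the authors' factors, the endothelial covariate and the same pairs of libraries left out. Tgfbr3 was -0.18 with the endothelial covariate, -0.070 and -0.053 without those pairs. Acta2 was 0.26 without the library labelled Htr2b_cKO 3 and control 1.

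Without single libraries, Tgfb1 ranged from -0.44 to 0.38, Tgfb3 from -0.035 to 0.54, Tgfbr2 from -0.24 to 0.29, Tgfbr3 from -0.22 to 0.48, Ltbp1 from -0.21 to 0.13, Ltbp2 from -0.15 to 0.12, Ltbp3 from -0.031 to 0.12, Ltbp4 from -0.26 to 0.62 and Acta2 from -0.77 to 0.18. With another gene length, 17 of 40 shares of a role moved by over 1 SD. After the GC and length correction, tried on the shares after seeing the data, 1 of 20 did, the Tgfbr1 share of the controls (12.6%). No paired analysis was possible because the labels give nothing that pairs a Htr2b_cKO library with a control library. Counting error covers counting only.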

Other observations

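Of the genes that hold the latent complex in place, Fn1, encoding fibronectin, had 11707, 8486, 4920 and 11017 CPM in Htr2b_cKO libraries, against 7221 and 11870 CPM in control libraries. Its values overlapped (log2 fold change -0.08, edgeR adjusted p = 0.964), with the lowest in the library labelled Htr2b_cKO 3. Fbn1, encoding the microfibril protein fibrillin, had 2254 to 2955 CPM in Htr2b_cKO libraries, against 2184 and 2610 CPM in control libraries (log2 fold change 0.17, edgeR adjusted p = 0.818). Nrros, which holds latent TGF-β on macrophages and microglia, had 11.0, 24.5, 41.0 and 5.02 CPM in Htr2b_cKO libraries, against 29.9 and 12.1 CPM in control libraries. Its 3 highest libraries were those with the most macrophage markers and the most Tgfb1. These genes are described after their values were seen.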
